A study of Mus musculus with 9 samples.

Results

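Messenger RNA levels of 39 type I interferon response genes were followed in the medial prefrontal cortex of DBA2/J mice, an inbred strain. The genes were a list of symbols that covers the receptor, its transcription factors, RNA sensors, antiviral effectors, ISG15 and its protease, PARP family members, antigen presentation and other interferon targets. All 39 were found among the 36172 features of the RNA sequencing count table, and all 39 passed the filter on low counts that left 15144 genes to test. Total counts ran from 29844993 to 42196374 per library. There were 3 groups of 3 samples. SA:ANH-KDM5Ci mice had 5 days of social defeat stress (smSDS in the labels), were of the subtype the submitters call SA:ANH, and received an inhibitor of KDM5C, a histone H3K4 demethylase. SA:ANH-vehicle mice had the same stress and subtype, and their treatment label names saline. NS mice had no stress, and their label also names saline. All groups share the DBA2/J background. The sources used here give no dose, no age and no meaning of SA:ANH, and the labels do not say whether each library is a different mouse. The tests therefore speak only of variation between these libraries, which could be technical.

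Type I interferons bind a receptor made of the chains IFNAR1 and IFNAR2, whose kinases JAK1 and TYK2 phosphorylate STAT2. STAT2 and IRF9 are parts of a complex that binds the interferon-stimulated response element in the promoters of antiviral genes. In the brain, microglia, endothelial cells, astrocytes and neurons can all respond, and uninfected tissue holds low levels of many of these transcripts. The samples were whole tissue pieces, so fewer cells of a type and less RNA per cell cannot be told apart.

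The response element core GAAA NN GAAA was searched on both strands in promoter windows from RefSeq (GRCm38.p6), which run from 250 bases before to 50 bases after an annotated start. Of the 39 genes, 30 had a window, and 12 of these, or 40.0%, held a match, against 3.99% of all 27025 genes with a window. The gamma-activated site ttcnnngaa, read the same on both strands, was in 9 of the 30, or 30.0%, against 9.55% of all genes. Of 19 response element matches, 1 overlapped a gamma-activated site. Matches are a description of letters and not of binding. The sequences below are the 250 bases before the start, on the gene's strand, of the genes that passed a test in any comparison and held a response element match, and of Oasl2, which passed and held neither motif. Capitals mark GAAA NN GAAA or its reverse complement. They come from chr4:156200819-156201068 on the minus strand for Isg15, and on the plus strand from chr19:34583279-34583528 for Ifit3, chr10:128270248-128270497 for Stat2 and chr5:114896684-114896933 for Oasl2. The start used for a window can differ from the first listed base of the gene. The Ifit3 gene is listed from 34583119, so its window lies within the gene. The Oasl2 gene is listed from 114896926, so its window ends just inside it. Positions below count from the window's start site.
Isg15: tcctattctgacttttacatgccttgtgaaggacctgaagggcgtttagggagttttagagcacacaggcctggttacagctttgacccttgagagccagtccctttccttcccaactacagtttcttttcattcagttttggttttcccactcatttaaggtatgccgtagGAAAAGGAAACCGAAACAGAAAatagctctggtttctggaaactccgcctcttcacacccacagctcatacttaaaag
Ifit3: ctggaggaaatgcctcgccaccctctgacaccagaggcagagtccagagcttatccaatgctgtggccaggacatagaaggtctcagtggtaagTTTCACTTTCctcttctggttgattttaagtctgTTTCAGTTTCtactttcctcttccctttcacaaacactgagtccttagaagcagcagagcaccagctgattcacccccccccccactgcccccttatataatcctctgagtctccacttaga
Stat2: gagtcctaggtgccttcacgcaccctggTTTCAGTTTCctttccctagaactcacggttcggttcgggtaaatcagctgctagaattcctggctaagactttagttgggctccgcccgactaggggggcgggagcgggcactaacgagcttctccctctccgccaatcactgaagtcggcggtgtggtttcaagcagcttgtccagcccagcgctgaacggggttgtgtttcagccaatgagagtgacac
Oasl2: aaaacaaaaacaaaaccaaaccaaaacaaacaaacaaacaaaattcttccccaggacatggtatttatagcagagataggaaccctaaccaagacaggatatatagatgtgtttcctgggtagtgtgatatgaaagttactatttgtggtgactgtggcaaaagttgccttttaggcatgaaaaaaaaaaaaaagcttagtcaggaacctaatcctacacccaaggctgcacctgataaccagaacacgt

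Isg15 had 3 overlapping matches from 78 to 57 bases before its start, so that the repeats run on as 1 block. Ifit3 had 2 matches, at -156 to -147 and at -122 to -113, and Stat2 had 1, at -222 to -213. Among the genes with a window, a response element match was found in 3 of 7 that passed a test in any comparison and in 9 of 23 that passed in none. A gamma-activated site was in 1 of the 7, Ifnar1, at -5 to 4, and in 8 of the 23.

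**Figure D1:**
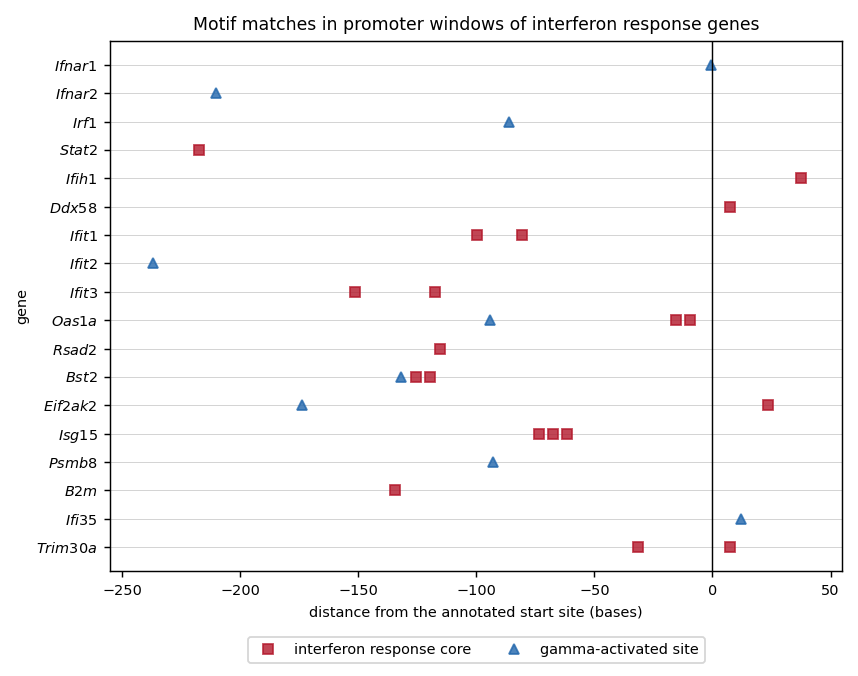
Positions of motif matches in the promoter windows of the interferon response genes that held any, in bases from the annotated start (x axis), with squares for the response element core and triangles for the gamma-activated site. Isg15 shows 3 squares side by side between -78 and -57.

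The first comparison, SA:ANH-KDM5Ci against SA:ANH-vehicle, is of stressed mice with and without the inhibitor. In it the treatment and the level of meningeal markers, described below, cannot be told apart. Of the 39 genes, 0 rose and 6 fell: the receptor chain Ifnar1, the transcription factor Irf9, the ligase Trim25, the effectors Oasl2 and Ifit3, and the modifier Isg15. Over all genes tested, 0.891% rose and 1.62% fell, 2.51% in all. At an unadjusted p of 0.05, 1 was higher and 24 were lower, against 5.58% and 8.62% over all genes. Fold changes were negative for 37 of the 39 genes and positive for 2, against 48.9% and 51.1% of all genes, with a median log2 fold change of -0.46 against 0.00 over all genes. The groups did not overlap for 23 genes that were lower and 1 that was higher, against 10.9% lower and 7.92% higher over all genes. The count of 6 was 3 when NS replicate 2 or the second SA:ANH-KDM5Ci library was left out, and 2 when SA:ANH-vehicle replicate 1, the second SA:ANH-vehicle library or the third SA:ANH-KDM5Ci library was. Calls are those of edgeR's quasi-likelihood test at an adjusted p of 0.05, with Benjamini-Hochberg adjustment over all 15144 genes.

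The second comparison, SA:ANH-vehicle against NS, is of stress without the inhibitor, and in it stress and subtype cannot be told apart. None of the 39 genes passed edgeR's quasi-likelihood test, with 0 that rose and 0 that fell, where 0.0132% of all genes rose and 0% fell. DESeq2 and limma-voom also called 0 of them. At an unadjusted p of 0.05, 12 were higher and 0 lower, against 4.27% higher and 3.95% lower over all genes. Fold changes were positive for 36 of 39 and negative for 3, against 51.6% and 48.4% of all genes, and their median was 0.22 on the log2 scale, against 0.00 over all genes. The groups did not overlap for 12 genes that were higher and 2 that were lower, against 8.29% and 6.81% over all genes. The median was 0.15 on the log2 scale without NS replicate 1 and likewise 0.15 when the second SA:ANH-vehicle library was left out.

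SA:ANH-KDM5Ci against NS sets stressed mice given the inhibitor beside non-stressed mice, and in it stress, subtype and inhibitor cannot be told apart. Ifi27 rose and Stat2, Trim25 and Ifnar1 fell, so 1 of 39 rose and 3 fell, where 1.86% of all genes rose and 2.11% fell, 3.97% in all. At an unadjusted p of 0.05, 2 were higher and 9 lower, against 8.85% and 9.61% over all genes. Fold changes were negative for 31 of 39 and positive for 8, against 50.1% and 49.9% of all genes, with a median of -0.17 on the log2 scale against 0.00. Groups did not overlap for 2 genes that were higher and 12 that were lower, against 11.5% and 12% over all genes. The count of 3 that fell was 1 when NS replicate 1, NS replicate 2 or the first SA:ANH-KDM5Ci library was left out, and 0 when the third library of NS or of SA:ANH-KDM5Ci was. The 3 comparisons share groups of libraries and are not independent of each other.

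Across libraries, the median over the 39 genes of the log2 level, centred per gene, was -0.09, -0.18 and -0.22 in SA:ANH-KDM5Ci. It was 0.22, 0.23 and 0.09 in SA:ANH-vehicle and -0.10, 0.03 and 0.06 in NS. SA:ANH-vehicle replicate 3 was thus the lowest library of its group, and NS replicate 1 the lowest of NS and below SA:ANH-KDM5Ci replicate 1. SA:ANH-vehicle had the highest mean of the 3 groups for 34 genes and the lowest for 0, where it had the highest for 29.3% and the lowest for 28.8% of all genes. SA:ANH-KDM5Ci had the lowest mean for 31 genes, against 36.7% of all genes.

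**Figure D2:**
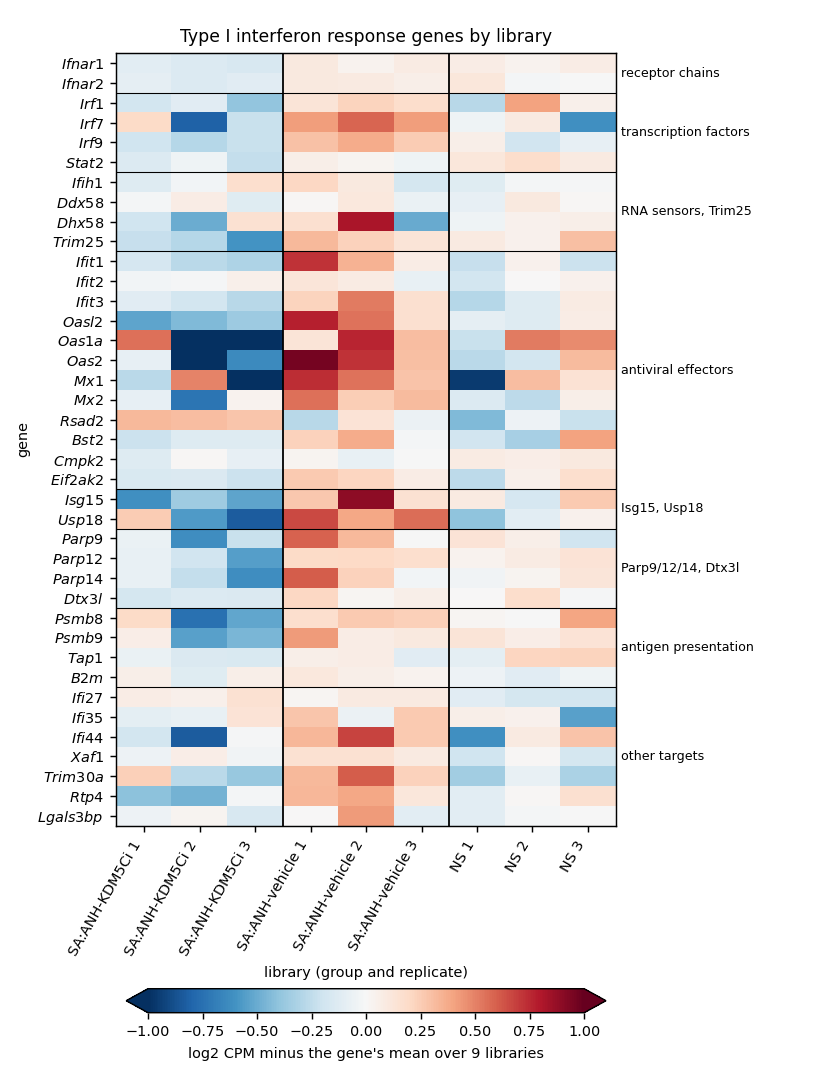
Log2 CPM of the 39 genes in the 9 libraries, minus each gene's mean over the libraries, in rows ordered by role and columns ordered by group. Most rows are below their mean (blue) in the 3 SA:ANH-KDM5Ci columns and above it (red) in SA:ANH-vehicle replicates 1 and 2, while Rsad2 is above it in SA:ANH-KDM5Ci.

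Levels are given as CPM, the depth-scaled count unit, after TMM scaling of the libraries. Divided by the length of annotated exons (GENCODE M21), B2m had the highest level of the 39 genes, at 50.8 ± 3.605 CPM per kb in SA:ANH-KDM5Ci, 53.1 ± 1.395 in SA:ANH-vehicle and 48.3 ± 1.37 in NS (SD, n = 3 each). Ifnar1 followed in NS, at 10.3 ± 0.204 CPM per kb in SA:ANH-KDM5Ci, 11.9 ± 0.274 in SA:ANH-vehicle and 11.8 ± 0.184 in NS. Mx1 was lowest in NS, at 0.0746 ± 0.0511 CPM per kb in SA:ANH-KDM5Ci, 0.132 ± 0.023 in SA:ANH-vehicle and 0.0817 ± 0.03897 in NS. The lowest counts in a library were 2 for Oas1a, 4 for Mx1 and 5 for Oas2, so these 3 genes are the least precisely measured.

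Both receptor chains had their lowest levels in SA:ANH-KDM5Ci. Ifnar1, the chain bound by TYK2 (gene 15975, chromosome 16, 91485032 to 91510523, GRCm38), had 62.3, 60.9 and 59.9 CPM in SA:ANH-KDM5Ci, 71.7, 68.6 and 71.1 CPM in SA:ANH-vehicle and 70.7, 68.7 and 70.6 CPM in NS. The SA:ANH-KDM5Ci libraries lay below all 6 others, which overlapped. Ifnar1 fell relative to SA:ANH-vehicle by 0.21 on the log2 scale (SE 0.05, adjusted p = 0.0278 in edgeR's quasi-likelihood test) and relative to NS by 0.20 (SE 0.05, adjusted p = 0.0272 by edgeR). Between SA:ANH-vehicle and NS its log2 fold change was 0.01 (SE 0.04, adjusted p = 0.982 by edgeR). Ifnar2, the high-affinity chain (gene 15976, chromosome 16, 91372783 to 91405589), had 15.98, 15.4 and 15.7 CPM in SA:ANH-KDM5Ci, 18.1, 18.1 and 17.6 CPM in SA:ANH-vehicle and 18.4, 16.8 and 16.96 CPM in NS. Again the SA:ANH-KDM5Ci libraries overlapped neither other group. Its log2 fold change was -0.20 (SE 0.06, adjusted p = 0.157 by edgeR) against SA:ANH-vehicle and -0.15 (SE 0.06, adjusted p = 0.237 by edgeR) against NS, and neither passed. SA:ANH-vehicle against NS was at 0.05 (SE 0.06, adjusted p = 0.912 by edgeR). The call of Ifnar1 against SA:ANH-vehicle was lost without NS replicate 2 or any 1 of the 6 libraries compared (adjusted p from 0.0548 to 0.0947 by edgeR). Against NS it was lost without any 1 of the 6 libraries compared (adjusted p from 0.0629 to 0.111 by edgeR).

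Of the 4 transcription factors, Irf9 fell against SA:ANH-vehicle and Stat2 against NS, where 1.62% and 2.11% of all genes fell. Irf9, the DNA-binding subunit of the interferon-activated complex (gene 16391, chromosome 14, 55603985 to 55610030), had 6.99, 6.56 and 6.85 CPM in SA:ANH-KDM5Ci, 9.82, 10.4 and 9.56 CPM in SA:ANH-vehicle and 8.37, 7.02 and 7.56 CPM in NS. No library of any group lay within the range of another group: SA:ANH-vehicle was highest and SA:ANH-KDM5Ci lowest. The gene overlaps Rnf31 on the same strand, and how reads of this pair were split is not known here. Irf9 fell against SA:ANH-vehicle by 0.55 on the log2 scale (SE 0.09, adjusted p = 0.00551 by edgeR), and this call held when any 1 of the 9 libraries was left out. The log2 fold change was 0.37 (SE 0.09, adjusted p = 0.217 by edgeR) for SA:ANH-vehicle against NS, and for SA:ANH-KDM5Ci against NS it was -0.17 (SE 0.09, adjusted p = 0.355 by edgeR).

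Stat2, the partner of IRF9 (gene 20847, chromosome 10, 128270498 to 128292853), had 22.5, 24.01 and 20.99 CPM in SA:ANH-KDM5Ci, 25.8, 25.2 and 23.98 CPM in SA:ANH-vehicle and 26.8, 27.98 and 26.4 CPM in NS. Unlike Irf9 it was highest in NS, with no overlap with either stressed group. It fell in SA:ANH-KDM5Ci against NS by 0.27 (SE 0.06, adjusted p = 0.0347 by edgeR). Its log2 fold change was -0.15 (SE 0.06, adjusted p = 0.297 by edgeR) against SA:ANH-vehicle and -0.12 (SE 0.06, adjusted p = 0.6901 by edgeR) for SA:ANH-vehicle against NS. The call was lost without any of the 3 NS libraries, SA:ANH-vehicle replicate 2, or either of replicates 1 and 3 of SA:ANH-KDM5Ci (adjusted p from 0.0597 to 0.146 by edgeR). Irf7, which drives induction of interferon-alpha genes, had 1.67, 0.808 and 1.25 CPM in SA:ANH-KDM5Ci, 1.97, 2.21 and 1.97 CPM in SA:ANH-vehicle and 1.41, 1.56 and 0.937 CPM in NS. SA:ANH-vehicle lay above both other groups. Irf1, which responds to both interferon types, spread from 4.83 to 7.78 CPM within NS alone. Neither passed in any comparison, with log2 fold changes of -0.72 (SE 0.24) for Irf7 and -0.41 (SE 0.15) for Irf1 against SA:ANH-vehicle.

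Among the RNA sensing genes, Trim25 fell and the sensors themselves did not pass. Trim25, a ubiquitin and ISG15 ligase that acts in RIG-I signalling (gene 217069, chromosome 11, 88999403 to 89020294), had 6.004, 5.79 and 4.66 CPM in SA:ANH-KDM5Ci, 8.86, 8.29 and 7.74 CPM in SA:ANH-vehicle and 7.52, 7.27 and 8.73 CPM in NS. The SA:ANH-KDM5Ci libraries were below all others, and SA:ANH-vehicle overlapped NS. Against SA:ANH-vehicle its log2 fold change was -0.61 (SE 0.12, adjusted p = 0.0131 by edgeR). Against NS its log2 fold change was -0.52 (SE 0.12, adjusted p = 0.026 by edgeR), and SA:ANH-vehicle against NS was at 0.09 (SE 0.11, adjusted p = 0.909 by edgeR). Without SA:ANH-vehicle replicate 1, SA:ANH-vehicle replicate 2 or the third SA:ANH-KDM5Ci library the first call was lost (adjusted p from 0.0551 to 0.0662 by edgeR). The second was lost without the third library of NS or of SA:ANH-KDM5Ci (adjusted p from 0.0997 to 0.129 by edgeR). Ddx58, which encodes RIG-I, was at -0.04 (SE 0.11) against SA:ANH-vehicle, and Ifih1, which encodes MDA5, at -0.04 (SE 0.12). Dhx58, which encodes LGP2, was at -0.41 (SE 0.30), with 1.85 CPM in SA:ANH-vehicle replicate 2 and 0.706 CPM in replicate 3.

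**Figure D3:**
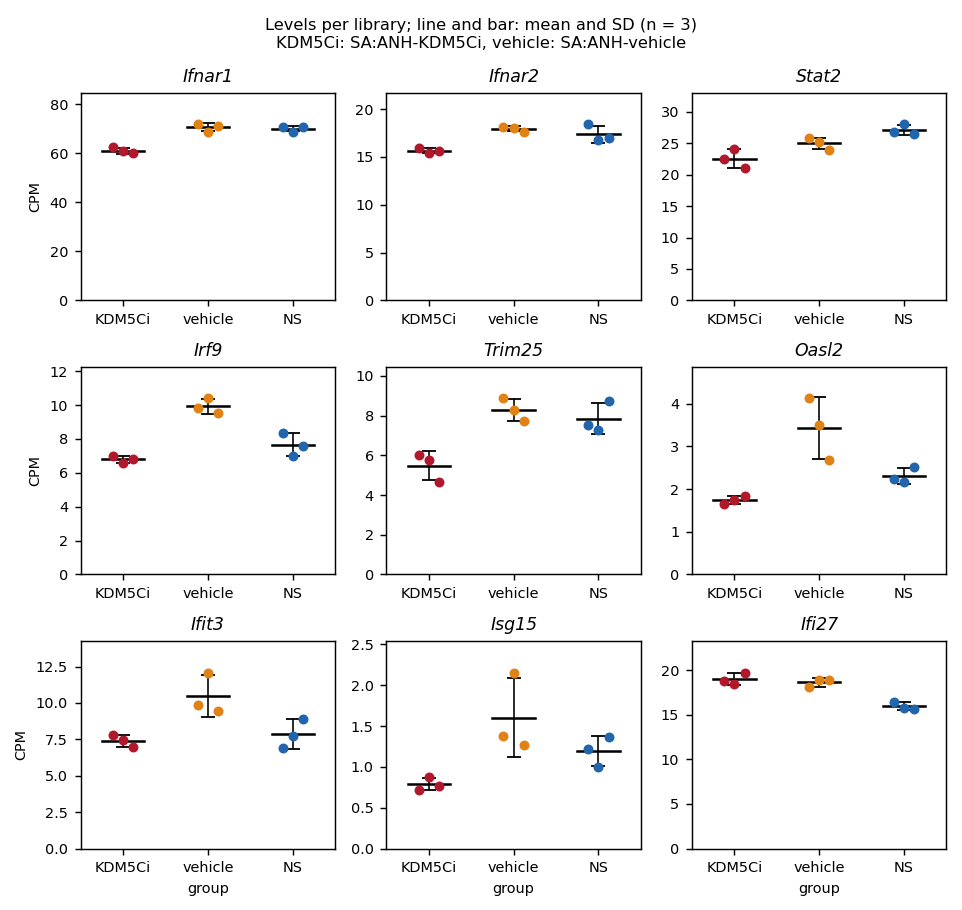
CPM of 9 genes per library (points) in SA:ANH-KDM5Ci, SA:ANH-vehicle and NS, each axis from 0, with the mean as a line and the SD as a bar (n = 3). Ifnar1, Ifnar2, Irf9, Trim25, Oasl2 and Isg15 lie lowest in SA:ANH-KDM5Ci, Stat2 is highest in NS, and Ifi27 is lowest in NS.

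The 12 antiviral effectors had a median log2 fold change of -0.56 in SA:ANH-KDM5Ci against SA:ANH-vehicle, with 11 negative, and of 0.32 in SA:ANH-vehicle against NS, with 11 positive. Over all genes, 48.9% were negative in the first of these and 51.6% positive in the second. Oasl2 and Ifit3 fell in the first, where 1.62% of all genes fell, and 0 of the 12 passed in the second. Oasl2, an OAS-like protein with ubiquitin-like domains (gene 23962, chromosome 5, 114896926 to 114912245), had 1.64, 1.75 and 1.84 CPM in SA:ANH-KDM5Ci, 4.12, 3.499 and 2.68 CPM in SA:ANH-vehicle and 2.23, 2.17 and 2.51 CPM in NS. The 3 groups did not overlap, with SA:ANH-vehicle highest and most spread. It fell against SA:ANH-vehicle by 0.98 (SE 0.17, adjusted p = 0.00716 by edgeR), which held without any 1 library. Its log2 fold change was 0.58 (SE 0.16, adjusted p = 0.322 by edgeR) in SA:ANH-vehicle against NS and -0.40 (SE 0.18, adjusted p = 0.256 by edgeR) in SA:ANH-KDM5Ci against NS.

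Ifit3, of the IFIT family that binds foreign RNA (gene 15959, chromosome 19, 34583119 to 34588982), had 7.81, 7.43 and 6.97 CPM in SA:ANH-KDM5Ci, 9.84, 12.1 and 9.41 CPM in SA:ANH-vehicle and 6.92, 7.72 and 8.93 CPM in NS. SA:ANH-vehicle was above all other libraries, and SA:ANH-KDM5Ci lay within the range of NS. It fell against SA:ANH-vehicle by 0.50 (SE 0.12, adjusted p = 0.0414 by edgeR). Its log2 fold change was 0.41 (SE 0.12, adjusted p = 0.322 by edgeR) in SA:ANH-vehicle against NS and -0.08 (SE 0.12, adjusted p = 0.765 by edgeR) in SA:ANH-KDM5Ci against NS. The call was lost without NS replicate 2, without SA:ANH-vehicle replicate 1 or 2, and without any SA:ANH-KDM5Ci library (adjusted p from 0.0619 to 0.1899 by edgeR). Ifit3 has a near-identical neighbour, Ifit3b, and the split of reads between them is uncertain. Ifit1, which binds viral RNA caps, had 2.43, 2.26 and 2.19 CPM in SA:ANH-KDM5Ci, 4.55, 3.499 and 2.88 CPM in SA:ANH-vehicle and 2.32, 2.81 and 2.34 CPM in NS. SA:ANH-vehicle was again above both other groups, and the log2 fold change was -0.68 (SE 0.17, adjusted p = 0.0591 by edgeR) for SA:ANH-KDM5Ci against it. Ifit2 of the same cluster was at -0.04 (SE 0.08), with 15.3, 15.4 and 16.1 CPM in SA:ANH-KDM5Ci and 16.97, 16.5 and 14.8 CPM in SA:ANH-vehicle.

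Of the other effectors, Oas2, which makes the activator of RNase L, had the most negative fold change of the 39 genes against SA:ANH-vehicle, at -1.41 (SE 0.35, adjusted p = 0.0514 by edgeR). Its levels were 0.394, 0.162 and 0.249 CPM in SA:ANH-KDM5Ci, 0.867, 0.728 and 0.529 CPM in SA:ANH-vehicle and 0.339, 0.362 and 0.535 CPM in NS. Its relative Oas1a was at -1.01 (SE 0.54). The Mx GTPases were at -0.90 for Mx1 (SE 0.47), of which many inbred strains carry a defective allele, and -0.62 for Mx2 (SE 0.22). Eif2ak2, the kinase PKR, was at -0.36 (SE 0.11) and Bst2, which tethers budding virus, at -0.37 (SE 0.20). None of these 6 passed in any comparison.

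Rsad2 and Cmpk2, which lie next to each other on chromosome 12, are described because of their values. Rsad2, the radical SAM enzyme viperin, had 3.02, 2.97 and 2.91 CPM in SA:ANH-KDM5Ci, 1.97, 2.63 and 2.29 CPM in SA:ANH-vehicle and 1.75, 2.31 and 2.04 CPM in NS. The SA:ANH-KDM5Ci libraries were above all others. The log2 fold change was 0.37 (SE 0.15, adjusted p = 0.281 by edgeR) against SA:ANH-vehicle and 0.54 (SE 0.16, adjusted p = 0.0759 by edgeR) against NS, and neither passed. Cmpk2, a mitochondrial nucleotide kinase, had 36.2, 40.04 and 37.5 CPM in SA:ANH-KDM5Ci, 40.4, 37.7 and 39.6 CPM in SA:ANH-vehicle and 42, 41.6 and 42.5 CPM in NS. It was highest in NS, with log2 fold changes of -0.05 (SE 0.05) in SA:ANH-KDM5Ci against SA:ANH-vehicle and -0.15 (SE 0.05, adjusted p = 0.155 by edgeR) against NS.

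Isg15, the ubiquitin-like modifier (gene 100038882, chromosome 4, 156199424 to 156200818), had 0.722, 0.873 and 0.772 CPM in SA:ANH-KDM5Ci, 1.38, 2.16 and 1.26 CPM in SA:ANH-vehicle and 1.22, 1.003 and 1.37 CPM in NS. SA:ANH-KDM5Ci lay below all other libraries, and SA:ANH-vehicle and NS overlapped. It fell against SA:ANH-vehicle by 1.02 on the log2 scale (SE 0.24, adjusted p = 0.0441 by edgeR) and was at -0.59 against NS (SE 0.25, adjusted p = 0.2301 by edgeR). In SA:ANH-vehicle against NS it was at 0.42 (SE 0.23, adjusted p = 0.6802 by edgeR). The call was lost without any 1 library except SA:ANH-vehicle replicate 3 (adjusted p from 0.0526 to 0.1899 by edgeR). Usp18, which removes ISG15 from proteins and blocks the receptor, had 1.02, 0.549 and 0.448 CPM in SA:ANH-KDM5Ci, 1.36, 1.12 and 1.26 CPM in SA:ANH-vehicle and 0.622, 0.7804 and 0.8698 CPM in NS. SA:ANH-vehicle was above both other groups. The log2 fold change of Usp18 was 0.73 (SE 0.27, adjusted p = 0.5005 by edgeR) for SA:ANH-vehicle against NS and -0.92 (SE 0.28, adjusted p = 0.118 by edgeR) for SA:ANH-KDM5Ci against SA:ANH-vehicle.

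The ADP-ribosylation genes Parp9, Parp12, Parp14 and Dtx3l, of which DTX3L is a ubiquitin ligase that works with PARP9, had log2 fold changes of -0.63, -0.46, -0.61 and -0.25 in SA:ANH-KDM5Ci against SA:ANH-vehicle, without overlap of the groups for any of the 4, where 10.9% of all genes were lower without overlap. None passed, and Parp12 came nearest (SE 0.11, adjusted p = 0.0516 by edgeR), with 7.09, 6.53 and 5.08 CPM in SA:ANH-KDM5Ci, 8.53, 8.57 and 8.41 CPM in SA:ANH-vehicle and 7.66, 7.92 and 8.196 CPM in NS. Parp9 and Dtx3l overlap on opposite strands. Against NS all 4 were negative, from -0.35 to -0.21, where 50.1% of all genes were negative.

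Of the antigen presentation genes, 0 of 4 passed in any comparison. The immunoproteasome subunits Psmb8 and Psmb9 were at -0.55 (SE 0.22) and -0.55 (SE 0.23) against SA:ANH-vehicle. The peptide transporter subunit Tap1 was at -0.13 (SE 0.14) and B2m, the light chain of class I molecules, at -0.06 (SE 0.06). Psmb8 had 2.53, 1.29 and 1.52 CPM in SA:ANH-KDM5Ci and 2.48, 2.66 and 2.62 CPM in SA:ANH-vehicle, so that the first SA:ANH-KDM5Ci library lay within the SA:ANH-vehicle range and the others below it. B2m had 45.4, 40.1 and 45.5 CPM in SA:ANH-KDM5Ci, 46.9, 45.4 and 44.6 CPM in SA:ANH-vehicle and 42.1, 40.2 and 42.4 CPM in NS, with overlap of the stressed groups.

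Of the 7 other targets, Ifi27 rose against NS, where 1.86% of all genes rose, and 0 passed against SA:ANH-vehicle. Ifi27, a mitochondrial and nuclear envelope protein (gene 52668, chromosome 12, 103434189 to 103440245), had 18.8, 18.4 and 19.7 CPM in SA:ANH-KDM5Ci, 18.1, 18.9 and 18.9 CPM in SA:ANH-vehicle and 16.4, 15.8 and 15.6 CPM in NS. Both stressed groups lay above NS and overlapped each other. It rose in SA:ANH-KDM5Ci against NS by 0.25 (SE 0.06, adjusted p = 0.0405 by edgeR). It was at 0.22 in SA:ANH-vehicle against NS (SE 0.06, adjusted p = 0.322 by edgeR) and at 0.03 (SE 0.06) between the stressed groups. The call was lost without NS replicate 2 or 3, without SA:ANH-vehicle replicate 2 or 3, and without any SA:ANH-KDM5Ci library (adjusted p from 0.0578 to 0.157 by edgeR). Against SA:ANH-vehicle, Ifi44 was at -0.77 (SE 0.30), Rtp4 at -0.58 (SE 0.19), Trim30a at -0.53 (SE 0.18), Lgals3bp at -0.19 (SE 0.12), Ifi35 at -0.18 (SE 0.18) and Xaf1, a partner of the apoptosis inhibitor XIAP, at -0.14 (SE 0.08). Trim30a had the highest fold change of the 7 in SA:ANH-vehicle against NS, at 0.65 (SE 0.18, adjusted p = 0.329 by edgeR), with 2.79, 1.94 and 1.79 CPM in SA:ANH-KDM5Ci, 2.95, 3.61 and 2.77 CPM in SA:ANH-vehicle and 1.84, 2.23 and 1.87 CPM in NS.

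**Figure D4:**
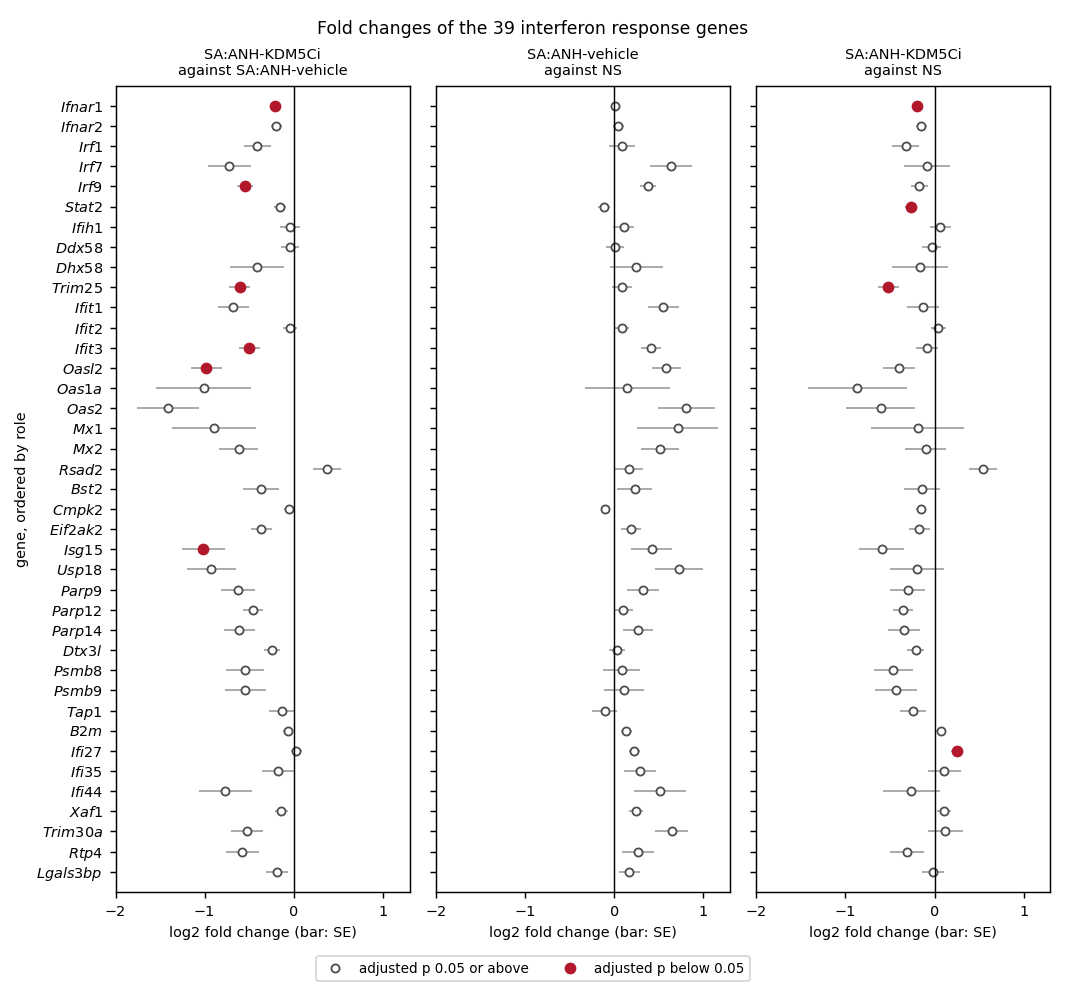
Log2 fold changes of the 39 genes (points) with their standard errors (bars) in the 3 comparisons, with filled points for an adjusted p below 0.05 by edgeR. In SA:ANH-KDM5Ci against SA:ANH-vehicle 37 points lie left of 0 and 6 are filled, and in SA:ANH-vehicle against NS 36 lie right of 0 and 0 are filled.

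Genes around this response were taken from 4 further lists. Among 19 ligands, sensors and adaptors, the interferon genes Ifnb1, Ifna4 and Ifng were listed at 0 in all libraries and Ifna2 had at most 2 counts. Ifi44l, Helz2 and Phf11b of the other interferon targets, and Acta2 and Ly6g of the cell type markers below, were also listed at 0. Whether a listed 0 marks a gene without reads was not tested. Of the 14 tested, 1 rose and 0 fell in SA:ANH-KDM5Ci against each other group. Over all genes, 0.891% rose against SA:ANH-vehicle and 1.86% against NS. At an unadjusted p of 0.05 by edgeR, 2 were higher and 3 lower against SA:ANH-vehicle, where 5.58% and 8.62% of all genes were. The gene that rose against both other groups was Tlr7, the endosomal receptor for single-stranded RNA. It had 9.29, 8.66 and 7.19 CPM in SA:ANH-KDM5Ci, 4.15, 4.59 and 4.38 CPM in SA:ANH-vehicle and 3.08, 3.87 and 4.75 CPM in NS. The SA:ANH-KDM5Ci libraries were above all others. Its log2 fold change was 0.93 (SE 0.14, adjusted p = 0.0036 by edgeR) against SA:ANH-vehicle and 1.11 (SE 0.15, adjusted p = 0.000924 by edgeR) against NS. Both calls held without any 1 library, and with the meningeal marker covariate described below the first was lost (adjusted p = 0.108 by edgeR) and the second held (adjusted p = 0.0418 by edgeR). In SA:ANH-vehicle against NS 0 of the 14 passed, with 0 at an unadjusted p of 0.05 by edgeR. The lowest p values there were those of the adaptor Ticam1, at 0.19 (SE 0.11), and of Irf3, at 0.18 (SE 0.10).

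Of 15 receptor and signalling genes, all tested, 0 rose and 1 fell against SA:ANH-vehicle, where 0.891% of all genes rose and 1.62% fell. At an unadjusted p of 0.05 by edgeR, 3 were higher and 4 lower there, against 5.58% and 8.62% of all genes. The gene that fell was Ptpn2, a phosphatase of JAK1. It had 27.1, 26.7 and 25.5 CPM in SA:ANH-KDM5Ci, 33.3, 33.3 and 31.1 CPM in SA:ANH-vehicle and 29.9, 28.6 and 30.3 CPM in NS. The 3 groups did not overlap. The log2 fold change was -0.30 (SE 0.06, adjusted p = 0.0106 by edgeR), and leaving out SA:ANH-vehicle replicate 2 ended the call (adjusted p = 0.0672 by edgeR). Jak2, a kinase of the interferon-gamma receptor, had 67.8, 63.9 and 66.99 CPM in SA:ANH-KDM5Ci, 59.9, 62.7 and 60.6 CPM in SA:ANH-vehicle and 50.7, 54.2 and 53.4 CPM in NS, without overlap. It rose in SA:ANH-KDM5Ci against NS by 0.33 (SE 0.05, adjusted p = 0.00211 by edgeR), a call that held without any 1 library and was lost with the meningeal marker covariate (adjusted p = 0.0907 by edgeR). In that comparison 1 of the 15 rose and 0 fell, where 1.86% of all genes rose and 2.11% fell. In SA:ANH-vehicle against NS, 0 of the 15 passed by edgeR, and the median was 0.07 on the log2 scale. At an unadjusted p of 0.05, 3 were higher and 0 lower, against 4.27% and 3.95% of all genes. The lowest p values there were those of Jak2, at 0.21 (SE 0.05, adjusted p = 0.199 by edgeR), and of Irf2, at 0.20 (SE 0.06).

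Of 41 other interferon targets, 34 were tested, and 0 rose and 5 fell in SA:ANH-KDM5Ci against SA:ANH-vehicle, where 0.891% of all genes rose and 1.62% fell. Their median was -0.14 on the log2 scale and 26 of 34 were negative, against 48.9% of all genes. Tnfsf10, the death ligand TRAIL, fell by 1.63 (SE 0.21, adjusted p = 0.0007802 by edgeR). The GTPases Gbp2 and Gbp3 were at -0.88 (SE 0.14, adjusted p = 0.00519 by edgeR) and -0.77 (SE 0.14, adjusted p = 0.00858 by edgeR). Sp100, a nuclear body protein, was at -0.72 (SE 0.16, adjusted p = 0.0302 by edgeR) and Ifit3b at -0.53 (SE 0.13, adjusted p = 0.0435 by edgeR). Tnfsf10 had 1.805, 1.75 and 1.39 CPM in SA:ANH-KDM5Ci, 6.47, 4.87 and 3.82 CPM in SA:ANH-vehicle and 3.22, 4.46 and 3.75 CPM in NS. Its SA:ANH-KDM5Ci libraries were below all others, and it also fell against NS, by 1.22 (SE 0.21, adjusted p = 0.00605 by edgeR). Slfn2, a Schlafen family gene, rose against NS by 1.42 (SE 0.35, adjusted p = 0.0379 by edgeR). In SA:ANH-KDM5Ci against NS 1 of the 34 thus rose and 1 fell, where 1.86% of all genes rose and 2.11% fell. The calls of Tnfsf10, Gbp2 and Gbp3 held without any 1 library and were lost with the meningeal marker covariate described below. That of Sp100 was lost without any SA:ANH-vehicle library and without SA:ANH-KDM5Ci replicate 2 or 3 (adjusted p from 0.051 to 0.116 by edgeR). That of Ifit3b was lost without any 1 library except NS replicate 1 and SA:ANH-KDM5Ci replicate 1 (adjusted p from 0.0663 to 0.163 by edgeR). That of Slfn2 was lost without any 1 except SA:ANH-vehicle replicate 1 and SA:ANH-KDM5Ci replicate 2 (adjusted p from 0.0542 to 0.163 by edgeR). In SA:ANH-vehicle against NS 0 of the 34 passed by edgeR, with 7 higher and 0 lower at an unadjusted p of 0.05, against 4.27% and 3.95% of all genes. The lowest p values there were those of Gbp2, at 0.48 (SE 0.14, adjusted p = 0.337 by edgeR), and of the exonuclease gene Isg20, at 1.20 (SE 0.38).

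Of 11 further class I antigen presentation genes 0 passed in any comparison by edgeR. At an unadjusted p of 0.05, 0 were higher and 1 lower against SA:ANH-vehicle, where 5.58% and 8.62% of all genes were. The median of the 11 there was -0.03 on the log2 scale. In each comparison with NS 3 of the 11 were higher and 0 lower. Over all genes, 4.27% were higher in SA:ANH-vehicle against NS and 8.85% in SA:ANH-KDM5Ci against NS. The lowest p against SA:ANH-vehicle belonged to Nlrc5, the activator of class I genes, at -0.72 (SE 0.29, adjusted p = 0.266 by edgeR), followed by the proteasome subunit gene Psmb10 at 0.13 (SE 0.10). In SA:ANH-vehicle against NS the chaperone genes Calr and Pdia3 had the lowest p, at 0.23 (SE 0.06, adjusted p = 0.278 by edgeR) and 0.17 (SE 0.05, adjusted p = 0.329 by edgeR). In SA:ANH-KDM5Ci against NS they were at 0.22 (SE 0.06, adjusted p = 0.05998 by edgeR) and 0.14 (SE 0.05, adjusted p = 0.148 by edgeR).

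Markers of the cells that the pieces could hold were read beside these results. The 14 markers of meninges and fibroblasts summed to 170 to 187 CPM in SA:ANH-KDM5Ci, 213 to 308 CPM in SA:ANH-vehicle and 196 to 287 CPM in NS, with 0 listed at 0. A large part of each sum was Pdgfra, with 61.6, 65.7 and 53.7 CPM in SA:ANH-KDM5Ci and 58.4, 55.4 and 52.2 CPM in SA:ANH-vehicle. It was the 1 marker of the 14 with a positive log2 fold change between these groups, at 0.12 (SE 0.08). Against SA:ANH-vehicle, 4 of the 14 fell and 0 rose, where 1.62% of all genes fell. At an unadjusted p of 0.05, 13 were lower, against 8.62% of all genes, and for 13 the groups did not overlap, against 10.9%. Their median log2 fold change was -0.74, a larger decrease than the -0.46 of the interferon genes. Against NS, 3 fell and 0 rose, where 2.11% of all genes fell, with 11 lower at an unadjusted p of 0.05, against 9.61% of all genes, and a median of -0.68. With their score as a covariate, added after the data had been seen, 0 of the 6 calls against SA:ANH-vehicle and 0 of the 4 against NS were left, at medians of -0.24 and -0.05 on the log2 scale. The calls of Ptpn2, Tnfsf10, Gbp2, Gbp3, Sp100 and Ifit3b against SA:ANH-vehicle were lost as well (adjusted p of 0.363, 0.123, 0.299, 0.376, 0.63 and 0.529 by edgeR), as were those of Tnfsf10 and Slfn2 against NS (0.295 and 0.184). In that fit 23 genes of all tested were called against SA:ANH-vehicle, and 380 without the covariate. The score was -0.51 to -0.40 in SA:ANH-KDM5Ci, 0.01 to 0.67 in SA:ANH-vehicle and -0.11 to 0.44 in NS. It did not overlap between SA:ANH-KDM5Ci and the other groups, so the covariate takes up part of the group difference by construction, and marker level and treatment cannot be told apart in this fit. In SA:ANH-vehicle against NS 0 of the 14 passed by edgeR, at 0 with an unadjusted p of 0.05, and the median of the interferon genes was 0.22 with the covariate as without it.

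The 16 microglia markers summed to 556 to 720 CPM in SA:ANH-KDM5Ci, with the highest value in replicate 1, 580 to 596 CPM in SA:ANH-vehicle and 546 to 552 CPM in NS, with 0 listed at 0 and 0 that passed in any comparison. In SA:ANH-vehicle against NS 15 of the 16 were positive, against 51.6% of all genes. There 7 were higher without overlap and 0 lower, against 8.29% and 6.81%, and 0 had an unadjusted p below 0.05 by edgeR. In SA:ANH-KDM5Ci against NS 8 were higher and 1 lower at that p, against 8.85% and 9.61% of all genes. Against SA:ANH-vehicle 11 were positive and 5 negative, against 51.1% and 48.9%. The 15 endothelial markers summed to 418 to 508 CPM in SA:ANH-KDM5Ci, 412 to 449 CPM in SA:ANH-vehicle and 397 to 411 CPM in NS. Against SA:ANH-vehicle 12 of the 15 were negative, where 48.9% of all genes were, at a median of -0.15 on the log2 scale. Cldn5 (-0.70), Kdr (-0.84) and Slco1a4 (-0.43) fell and Slc2a1 (0.88) rose, where 1.62% of all genes fell and 0.891% rose. Slc2a1 alone had 163, 136 and 148 CPM in SA:ANH-KDM5Ci against 79.2, 84.8 and 79.1 CPM in SA:ANH-vehicle, which raises the sum. In SA:ANH-KDM5Ci against NS 1 rose and 3 fell, where 1.86% of all genes rose and 2.11% fell. The 5 erythroid genes found summed to 444 to 586 CPM in SA:ANH-KDM5Ci, 486 to 554 CPM in SA:ANH-vehicle and 279 to 321 CPM in NS, without overlap of either stressed group with NS. Of these 5, 5 rose in SA:ANH-KDM5Ci against NS and 2 in SA:ANH-vehicle against NS, where 1.86% and 0.0132% of all genes rose. The 11 leukocyte markers summed to 4.59 to 13.4 CPM in SA:ANH-KDM5Ci, 6.62 to 14.3 CPM in SA:ANH-vehicle and 5.40 to 8.67 CPM in NS. Ly6g was at 0, and 0 of the 5 tested passed. All 5 were negative in SA:ANH-KDM5Ci against SA:ANH-vehicle, where 48.9% of all genes were, at a median of -0.70 on the log2 scale. In SA:ANH-vehicle against NS all 5 were positive, where 51.6% of all genes were, at a median of 0.54. In SA:ANH-KDM5Ci against NS 3 were positive and 2 negative, at a median of 0.18. The part of these cells in the interferon results was not tested. Astrocyte markers had 1 of 10 that fell against SA:ANH-vehicle and mural markers 1 of 9 tested, where 1.62% of all genes fell. Acta2 of the mural list was listed at 0. In each of these lists 1 also fell in SA:ANH-KDM5Ci against NS, where 2.11% of all genes fell. Oligodendrocyte markers had 0 of 8 that passed, at a median of 0.45 on the log2 scale against SA:ANH-vehicle. As a check of the tissue, the 10 cortical neuron markers summed to 6215 to 6600 CPM in SA:ANH-KDM5Ci, 6408 to 6659 CPM in SA:ANH-vehicle and 6412 to 6811 CPM in NS, with 0 listed at 0.

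**Figure D5:**
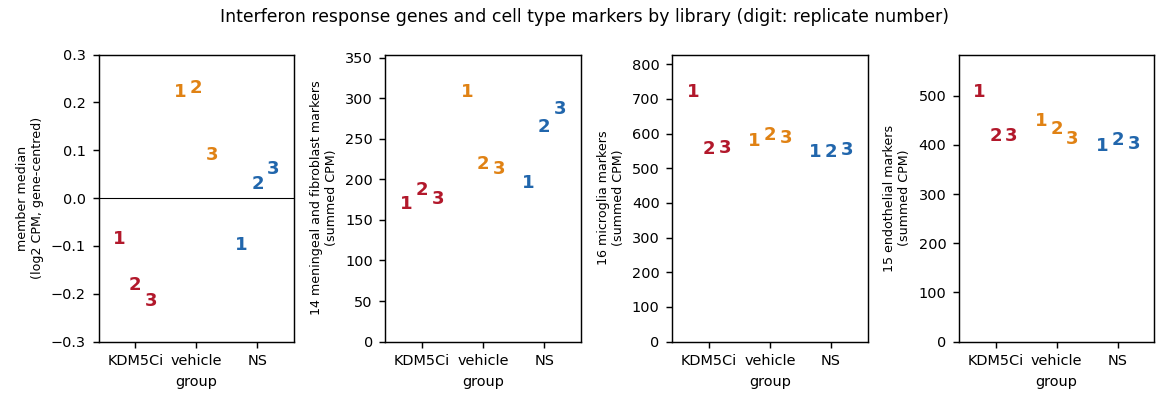
For each library, shown by its replicate number, the median centred log2 CPM of the 39 interferon genes (left) and the summed CPM of meningeal and fibroblast, microglia and endothelial markers, in SA:ANH-KDM5Ci, SA:ANH-vehicle and NS. The interferon median and the meningeal sum are both lowest in SA:ANH-KDM5Ci apart from NS replicate 1, whose interferon median of -0.10 lies below that of SA:ANH-KDM5Ci replicate 1, and microglia markers peak at 720 CPM in SA:ANH-KDM5Ci replicate 1.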

How the data were processed

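RNA of mouse medial prefrontal cortex was sequenced from strand-specific SureSelect libraries, per the labels' protocols. The authors deposited expected counts per NCBI gene ID, of which 15.7% of the values above 0 are whole within 1e-06. Trimmomatic 0.32, TopHat2 2.0.13, Bowtie2 2.2.3 and mm10 are named in the submitters' processing notes. How reads were counted, and whether by strand, is not given in the sources used here. Of the 39 genes, 18 overlap another gene in GENCODE M21, and 15 overlap an antisense gene. Same-strand overlaps are those of Irf9 with Rnf31, Ifnar2 with Gm21970, Parp14 with Gm49730 and Rtp4 with Gm45338. Whether reads of any such pair were counted apart is unknown here.

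Expected counts were rounded, filtered with edgeR's filterByExpr and scaled by TMM. The main test was edgeR's quasi-likelihood test with robust moderation (edgeR 4.0.16, R 4.3.3), fitted to all 9 libraries with a mean for each group, with Benjamini-Hochberg adjustment over 15144 genes. A standard error is the log2 fold change over the square root of F. Symbols and positions came from RefSeq for GRCm38.p6, matched for 32891 IDs. The script was tested on simulated data. Alternatives were DESeq2 1.42.0, limma-voom (limma 3.58.1), other scalings and filters, 2 groups only, no robust moderation, a replicate block, a threshold of 0.1 and each library left out. The limit that a count of 0 allows, 3 counts, is 0.0703 CPM in the deepest library and 0.100 CPM in the shallowest, for counting error only. No pair of libraries in a group agreed within sampling noise.

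The genes and lists were chosen with earlier results of these data known, and lists get no test. Given in full are genes that passed in any comparison, the 3 of lowest p in each, Ifnar1, Ifnar2, Stat2 and Irf9. Of other pathway lists, those that passed and, where none did, the 2 of lowest p are named. Per-library values of any other gene were chosen after its values were seen.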

Additional observations from a re-analysis of the deposited data

How the results depend on the processing

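Each count and median was recomputed under the alternatives. Median log2 fold changes kept their sign in all. They were set against 0.109, the SD of a difference between the medians of 2 single libraries. They moved by more than this with the meningeal score as covariate, to -0.2387 for SA:ANH-KDM5Ci against SA:ANH-vehicle and -0.047 against NS. Means of 3 libraries vary less than single libraries, so this measure is wide and smaller moves are not shown to be negligible. With that covariate 0 genes were called lower in either comparison and 0 higher. With 1 library left out, genes called lower than in SA:ANH-vehicle numbered from 2 to 7, those lower than in NS from 0 to 3 and those higher than in NS from 0 to 1. The count higher than in NS was 0 with library size without TMM, no filter on low counts, only the 2 groups compared and the replicate block, and 2 at a threshold of 0.1. The count lower than in NS was 1 with only the 2 groups. The count lower than in SA:ANH-vehicle was 9 with library size without TMM, with no filter and at a threshold of 0.1, 7 with DESeq2, 5 with limma-voom, which lost Ifit3 and Isg15 and gained Parp12, and 4 with only the 2 groups, which lost Isg15 and Ifnar1. The calls of Irf9 and Oasl2 against SA:ANH-vehicle were lost only with the covariate among the alternatives run.

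Replicate numbers were not taken to pair the libraries, because the labels do not say that they do. Correlations of deviations between same-numbered libraries ran from 0.084 to 0.238 for SA:ANH-KDM5Ci and SA:ANH-vehicle. There 5 of 6 libraries correlated best with their own number. For SA:ANH-vehicle and NS it was 2 of 6 (-0.031 to 0.056), and for SA:ANH-KDM5Ci and NS 1 of 6 (-0.144 to 0.102). Whether the numbers mark a shared batch is not stated. With the replicate block, 4 genes were lower than in SA:ANH-vehicle, without Ifit3 and Isg15, and 3 were lower than in NS. Signs that turned were of uncalled values near 0. Ifi27 against SA:ANH-vehicle was -0.0496 with the covariate and from -0.0012 to 0.0503 with 1 library left out, Ifnar1 in SA:ANH-vehicle against NS from -0.0052 to 0.0272, and Ifit3 in SA:ANH-KDM5Ci against NS from -0.1636 to 0.0134. The cause was not tested. Depth limits Oas1a, Mx1 and Oas2 most.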
